A study of Mus musculus with 6 samples.

Results

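The 10 genes described here encode the MYC, MAX and MXD network of transcription factors, and were taken from the deposited tables by symbol (Myc, Mycn, Max, Mxd1, Mxi1, Mxd3, Mxd4, Mnt, Mga and Mlx). Each symbol stood on 1 row, and the 10 were drawn from 18134 distinct gene names. The libraries are RNA-seq of mouse embryonic fibroblasts (MEFs), connective tissue cells grown from embryos. There are 3 with the genotype label Ufl1-KO and 3 labelled NC, taken here as the control, an abbreviation that the labels do not spell out. UFL1 is the ligase of UFMylation, the attachment of the small protein UFM1 to other proteins. The study's title mentions knockdown and 24 h of hypoxia, while the labels of the libraries give genotype alone, so no oxygen levels are compared. The sources used here do not give how Ufl1 was disrupted or whether a group is 1 clone or several, and genotype and cell line cannot be told apart. No label names separate cultures for the replicates, so the spread behind each p-value may be technical, between preparations of the same cells.

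MYC proteins bind DNA as partners of MAX, at short sites called E-boxes, and raise transcription of genes for growth, ribosome production and nucleotide synthesis. The MXD proteins (MXD1, MXI1, MXD3 and MXD4) and MNT compete for MAX and bring the SIN3-HDAC corepressor to the same sites. MGA joins MAX in the repressive complex PRC1.6, and MLX is a second MAX-like partner, used by the glucose-responsive factors MondoA (Mlxip) and ChREBP (Mlxipl). In fibroblasts Myc is an early growth-response gene, and in human cells MXI1 is known as a target of the hypoxia-inducible factors (HIFs).

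Library totals ran from 15887011 to 21831860 counts. Values are in CPM, counts scaled to a common library total after TMM, edgeR's correction for differing RNA make-up, unless FPKM, which also divides by transcript length, is named. Ufl1 itself had 71, 69 and 102 counts in Ufl1-KO, against 382, 497 and 396 counts in NC, a level of 14.9% of NC by CPM. The libraries of NC did not lie equally close. NC replicate 1 stood apart, with a median absolute log2 difference of 0.217 and 0.198 from NC replicates 2 and 3, against 0.0967 between those 2 and 0.0714 to 0.0916 among the Ufl1-KO libraries. Results that rest on NC replicate 1 are given with and without it. Of 8 fibroblast markers past the filter on low counts, 7 fell, and the summed level of the 9 listed was 5786 to 5990 CPM in Ufl1-KO and 10038 to 10458 CPM in NC. Thy1 was near 1 CPM in both groups and Lum near 0. Of 5 haematopoietic markers 1 passed the filter (Cd68, lower), Cd3e was listed at 0 in every library, and the sum was 14.1 to 18.2 CPM in Ufl1-KO and 26.0 to 30.5 CPM in NC. Sums of the epithelial, endothelial, neural, skeletal muscle and pluripotent markers overlapped between the groups, the epithelial one being nearly all Krt18. Single markers were called within them. The epithelial gene Cdh1 (0.70 on the log2 scale) and the neural gene Tubb3 (1.74) rose, while neural Map2 (-0.48), endothelial Pecam1 (-2.81, with 0, 1 and 7 counts in Ufl1-KO and 20, 16 and 10 counts in NC) and muscle Des (-0.58) fell. The part of these markers in the results was not tested.

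Across the transcriptome 66.7% of 12224 genes tested were called by edgeR at an adjusted p below 0.05, 33.3% higher and 33.4% lower in Ufl1-KO. The network stood inside that broad change. All 10 genes passed the filter on low counts, 3 rose (Myc, Mxd3 and Mxd4), 6 fell (Mycn, Max, Mxd1, Mxi1, Mnt and Mga) and Mlx did not pass the test. Of the 10 tested, 3 (Myc, Mycn and Mxd1) were called and differed at least 2-fold, where 17.3% of all genes tested did. The CPM of the groups did not overlap for 9 of the 10 genes, where the share over all genes was 71.7%. For FPKM the groups stood apart for 9 of the 10 genes too, where the share over all genes was 69.9%. Max was the exception there, and with Mlx higher in Ufl1-KO 4 stood higher and 5 lower. The median log2 fold change of the 10 was -0.36, beside 0.00 over all genes tested. With library size alone in place of TMM the median of all genes stood at 0.18, with 5365 genes higher and 3119 lower, so directions here are those on TMM-scaled totals. A two-sided exact permutation test on log2 values gave p = 0.1 for each of the 9 called genes, the smallest value that 3 libraries against 3 allow, and p = 0.3 for Mlx. Bulk RNA does not tell fewer cells expressing a gene from less of its RNA per cell.

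**Figure D1:**
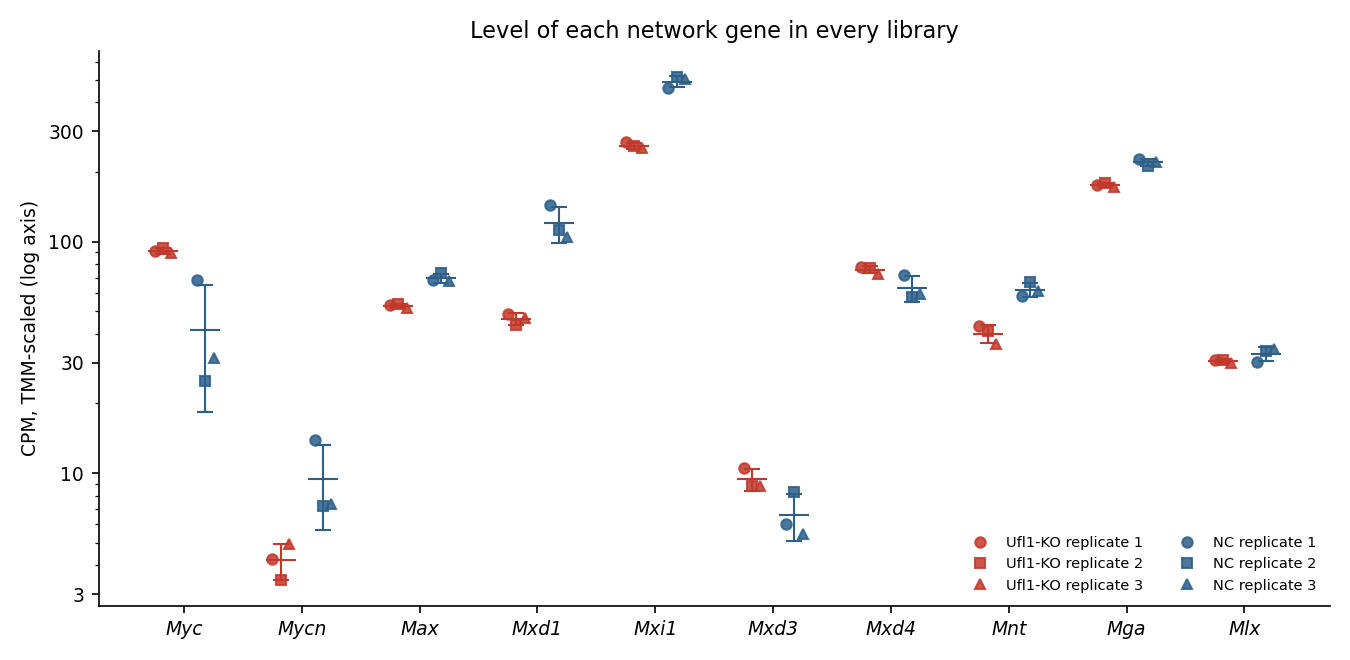
CPM of the 10 network genes on a log axis, with each library as a point, Ufl1-KO left of NC, and the bar and whiskers giving mean and SD (n = 3 each). Myc lay between 89.0 and 93.8 CPM in Ufl1-KO and between 25.1 and 68.1 CPM in NC, and the groups overlapped only for Mlx.

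The promoters of the network genes can be read for the E-box itself, since the network's own proteins bind it. RefSeq windows (GRCm38.p6) from 250 bases before to 50 bases after a gene start were on hand for 9 of the 10 genes, in 11 windows, and Myc was not among them. The E-box CACGTG, which reads the same on both strands, was found in the windows of 4 genes (Mxd4, Mnt, Mlx and Max), against 8.09% of 27025 genes with a window. These 4 are shown because they carry that site, in capitals, on the gene's own strand. The Mxd4 window is chr5:34187661-34187960 on the minus strand, that of Mnt chr11:74830674-74830973 on the plus strand, that of Mlx chr11:101087040-101087339 on the plus strand and that of Max chr12:76962199-76962498 on the minus strand.
Mxd4: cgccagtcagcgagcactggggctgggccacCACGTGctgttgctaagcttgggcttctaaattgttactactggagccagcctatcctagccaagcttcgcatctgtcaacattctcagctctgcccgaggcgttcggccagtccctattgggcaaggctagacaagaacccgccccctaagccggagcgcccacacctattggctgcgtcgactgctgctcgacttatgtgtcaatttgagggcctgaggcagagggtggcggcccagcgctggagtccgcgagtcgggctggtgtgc
Mnt: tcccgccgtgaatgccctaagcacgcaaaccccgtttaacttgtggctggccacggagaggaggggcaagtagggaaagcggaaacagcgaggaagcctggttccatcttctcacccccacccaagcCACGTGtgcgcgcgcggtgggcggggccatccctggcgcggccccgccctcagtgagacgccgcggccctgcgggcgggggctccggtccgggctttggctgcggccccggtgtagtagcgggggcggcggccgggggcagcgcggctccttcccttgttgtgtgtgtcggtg
Mlx: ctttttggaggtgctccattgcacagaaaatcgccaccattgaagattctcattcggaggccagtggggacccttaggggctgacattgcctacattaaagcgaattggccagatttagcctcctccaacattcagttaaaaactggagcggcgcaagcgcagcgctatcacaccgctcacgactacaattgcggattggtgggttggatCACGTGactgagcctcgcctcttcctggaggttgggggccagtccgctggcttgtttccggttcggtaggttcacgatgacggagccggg
Max: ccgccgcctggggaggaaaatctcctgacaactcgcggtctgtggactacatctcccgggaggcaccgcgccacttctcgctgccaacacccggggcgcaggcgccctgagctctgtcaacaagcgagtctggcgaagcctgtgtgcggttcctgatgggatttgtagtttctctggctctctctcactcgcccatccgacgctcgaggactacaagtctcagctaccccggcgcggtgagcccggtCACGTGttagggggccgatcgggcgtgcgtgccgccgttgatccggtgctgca
Counted in bases from the gene start, the E-box began at -219 in Mxd4, -123 in Mnt, -40 in Mlx and -3 in Max. Of these 4 genes Mxd4 rose, Mnt and Max fell and Mlx was not called, so the genes that hold the site did not share a direction.

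The HIF core (ACGTG or GCGTG, on either strand) is also shown, because Mxd1 and Mxi1 had the smallest adjusted p of the members that fell and the study's title names hypoxia. It was found in windows of 7 of the 9 genes, against 46.7% of all genes with a window, and every E-box CACGTG contains it. In Mxd4 and Mlx it lay only inside the E-box, and it was not found in the windows of Mycn and Mxd3. The Mxd1 window is chr6:86669110-86669409 on the minus strand and holds the core at 2 places. Mxi1 has 3 windows, of which 1 holds no core. That window spans the gene start given by GENCODE M21 (chr19:53310518). The one shown, chr19:53329163-53329462 on the plus strand, lies further inside the gene and holds the core once. The core is in capitals, read as CACGT or CACGC where it lies on the opposite strand.
Mxd1: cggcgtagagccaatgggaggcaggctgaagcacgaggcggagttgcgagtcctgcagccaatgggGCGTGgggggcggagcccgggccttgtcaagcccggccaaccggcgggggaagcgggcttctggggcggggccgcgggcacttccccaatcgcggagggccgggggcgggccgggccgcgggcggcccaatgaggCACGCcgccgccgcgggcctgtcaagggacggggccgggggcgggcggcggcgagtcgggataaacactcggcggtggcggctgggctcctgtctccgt
Mxi1: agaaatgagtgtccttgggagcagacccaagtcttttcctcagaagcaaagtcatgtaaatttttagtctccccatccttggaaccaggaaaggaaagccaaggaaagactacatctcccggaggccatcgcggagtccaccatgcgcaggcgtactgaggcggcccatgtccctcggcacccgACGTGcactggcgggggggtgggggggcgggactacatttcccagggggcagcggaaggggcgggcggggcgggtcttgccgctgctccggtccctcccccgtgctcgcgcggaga

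Myc, the best known member and a driver of growth genes, was higher in Ufl1-KO. Its level was 91.0, 93.8 and 89.0 CPM in Ufl1-KO, against 68.1, 25.1 and 31.5 CPM in NC, from 2097, 1720 and 1974 counts in Ufl1-KO, against 1134, 461 and 462 counts in NC. The 3 Ufl1-KO libraries were nearly level, and all lay above NC replicate 1, which in turn lay well above the other NC libraries. The mean was 91.3 ± 2.41 CPM in Ufl1-KO and 41.6 ± 23.2 CPM in NC (SD, n = 3 each), a log2 fold change of 1.14 (adjusted p = 0.00814 by edgeR, SE 0.30). NC replicate 1 held 2.4 times the Myc level of NC replicates 2 and 3 (1.26 on the log2 scale), a distance of over 1 that 0.72% of all genes tested showed in that direction. Without NC replicate 1 the log2 fold change of Myc was 1.71 (edgeR adjusted p = 7.75e-15), and over the other alternatives it ran down to 0.87 without NC replicate 2 and stayed called. Myc lies on chromosome 15 at 61985391 to 61990374 on the plus strand of mm10. GENCODE M21 lists it and the other 9 genes as protein-coding.

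Mycn, the neural and embryonic relative of Myc, went the other way from a low level. It had 4.25, 3.44 and 4.91 CPM in Ufl1-KO, against 13.9, 7.17 and 7.36 CPM in NC, or 98, 63 and 109 counts in Ufl1-KO, against 231, 132 and 108 counts in NC. NC replicate 1 was again the high NC library, at 1.85 times the level of NC replicates 2 and 3, and every Ufl1-KO library lay below all NC libraries. The log2 fold change was -1.16 (adjusted p = 0.00426 by edgeR, SE 0.27). Without NC replicate 1 it was -0.77 (edgeR adjusted p = 0.000294), and on the log2(FPKM + 1) scale, which understates low genes, it was -0.66 with a limma adjusted p of 0.0195. By FPKM, which corrects for length, Mycn made up 1.66 ± 0.306 FPKM in Ufl1-KO beside 45.4 ± 1.8 FPKM of Myc, and 3.32 ± 1.38 FPKM in NC beside 18.5 ± 10.1 FPKM of Myc (SD, n = 3 each).

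Max, the shared partner of MYC, MXD, MNT and MGA proteins, was modestly lower by counts. It had 53.2, 53.6 and 51.6 CPM in Ufl1-KO, against 68.0, 72.9 and 67.4 CPM in NC. Both groups were tight and did not overlap, with a log2 fold change of -0.40 (adjusted p = 0.000762 by edgeR, SE 0.07). The call did not hold on the FPKM values, where Max had 31.7, 31.6 and 32.6 FPKM in Ufl1-KO, against 34.6, 45.4 and 32.3 FPKM in NC. There NC replicate 2 was high and NC replicate 3 lay within the Ufl1-KO range. The log2(FPKM + 0.1) difference was -0.21 with a limma adjusted p of 0.145, and over the 3 FPKM fits the adjusted p ran from 0.145 to 0.196.

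Mxd1 and Mxi1, MXD repressors that oppose MYC, both fell. Mxd1 had 48.8, 43.7 and 46.8 CPM in Ufl1-KO, against 144, 112 and 105 CPM in NC. The lowest NC library held more Mxd1 than any Ufl1-KO library, and the log2 fold change was -1.37 (adjusted p = 1.39e-05 by edgeR, SE 0.12), or 2.59-fold lower. Mxi1 had 269, 258 and 254 CPM in Ufl1-KO, against 460, 513 and 504 CPM in NC. Here NC replicate 1 was the lowest of its group and still far above Ufl1-KO, and the log2 fold change was -0.92 (adjusted p = 3.82e-06 by edgeR, SE 0.06), or 1.89-fold lower. Both calls held in all 18 alternatives, with log2 fold changes from -1.46 to -1.12 for Mxd1 and from -0.95 to -0.74 for Mxi1.

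Mxd3 and Mxd4, the other MXD repressors, rose slightly. Mxd3, which is known from cycling cells, had 10.5, 8.83 and 8.79 CPM in Ufl1-KO, against 6.01, 8.31 and 5.45 CPM in NC. NC replicate 2 came close to the Ufl1-KO libraries, and the log2 fold change was 0.50 (adjusted p = 0.0283 by edgeR, SE 0.17). Its call was lost without Ufl1-KO replicate 1 (edgeR adjusted p = 0.112), Ufl1-KO replicate 2 (0.0505) or NC replicate 3 (0.0924). Mxd4, a member linked to resting and differentiating cells, had 77.6, 76.7 and 72.7 CPM in Ufl1-KO, against 72.0, 57.5 and 59.5 CPM in NC. The highest NC library lay just under the lowest Ufl1-KO library, and the log2 fold change was 0.26 (adjusted p = 0.0304 by edgeR, SE 0.09). It was not called without any 1 of the 3 Ufl1-KO libraries, NC replicate 2 or NC replicate 3, with edgeR adjusted p from 0.0523 to 0.0979, while without NC replicate 1 it was 0.38 (edgeR adjusted p = 4.19e-06). With Mxd3 and Mxd4 both lost, the number of network genes called higher was 1 without Ufl1-KO replicate 1, without Ufl1-KO replicate 2 and without NC replicate 3.

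Mnt and Mga, larger MAX partners that repress, were lower in Ufl1-KO. Mnt had 43.1, 41.1 and 35.98 CPM in Ufl1-KO, against 58.0, 66.7 and 61.4 CPM in NC, with a log2 fold change of -0.63 (adjusted p = 0.000287 by edgeR, SE 0.09). Mga had 176, 180 and 172 CPM in Ufl1-KO, against 227, 213 and 222 CPM in NC, with a log2 fold change of -0.32 (adjusted p = 0.000964 by edgeR, SE 0.06). Both sets of libraries stood clear of each other for either gene. For Mga the size of the difference depended on the scale, at -0.15 with library size alone (edgeR adjusted p = 0.0458) and -0.13 on log2(FPKM + 0.1), where limma gave an adjusted p of 0.136. Mlx had 30.9, 30.9 and 29.8 CPM in Ufl1-KO, against 30.3, 33.7 and 34.5 CPM in NC. By CPM the groups overlapped. By FPKM they did not, with 18.2, 17.6 and 17.5 FPKM in Ufl1-KO, against 15.96, 17.3 and 17.1 FPKM in NC. The log2 fold change by counts was -0.11 (adjusted p = 0.274 by edgeR, SE 0.08). It turned to 0.07 with library size alone and to 0.08 in the 3 FPKM fits, none of them called.

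**Figure D2:**
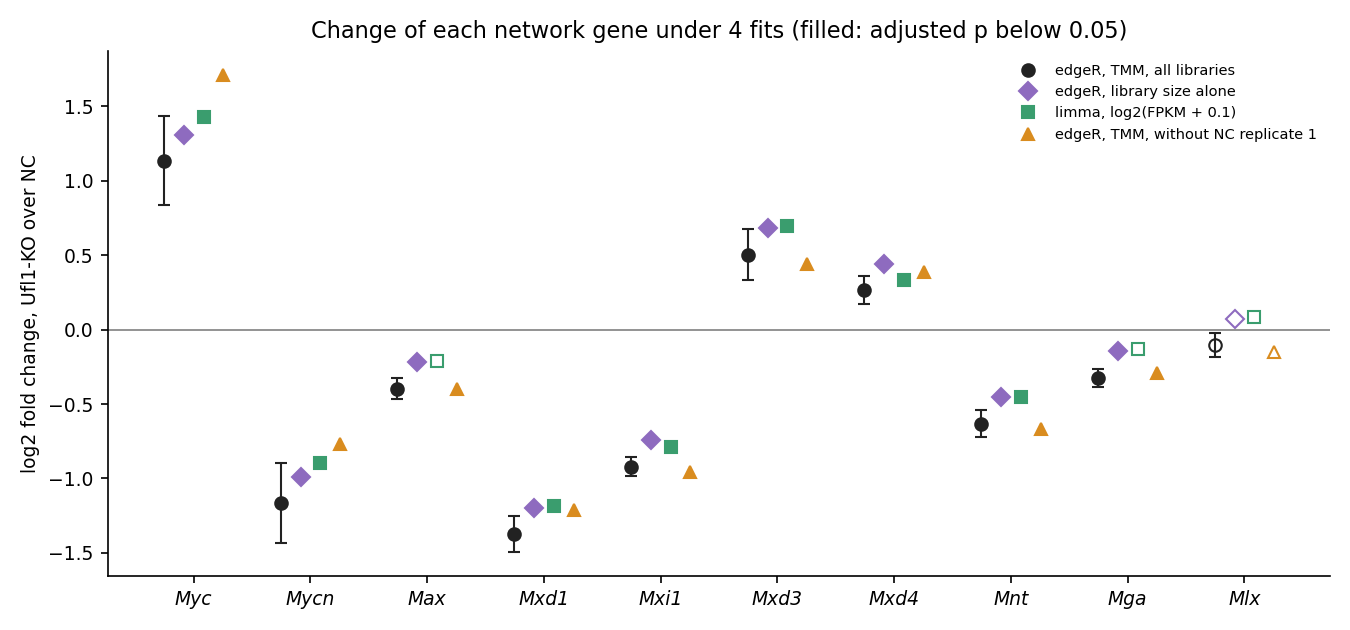
Log2 fold change of the 10 genes (y axis, Ufl1-KO over NC) under 4 fits, with SE whiskers on the fit with TMM and all libraries and filled symbols for an adjusted p below 0.05. Myc ran from 1.14 to 1.71 in these fits, and Max and Mga were not called on log2(FPKM + 0.1).

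Set side by side per length, the network mRNA had another order in the groups. In Ufl1-KO the order by mean FPKM was Mxi1, Myc, Max, Mxd4, Mlx, Mga, Mxd1, Mnt, Mxd3 and Mycn, from 108 ± 3.17 FPKM for Mxi1 to 1.66 ± 0.306 FPKM for Mycn (SD, n = 3). The ranges of neighbours in that order overlapped only for Mxd1 with Mnt and for Mnt with Mxd3. In NC the order was Mxi1, Max, Mxd1, Myc, Mxd4, Mlx, Mga, Mnt, Mxd3 and Mycn, led by Mxi1 at 187 ± 9.87 FPKM and Max at 37.5 ± 6.98 FPKM (SD, n = 3). From Mxd1 through Myc, Mxd4 and Mlx to Mga each gene overlapped with the next, and so did Mxd3 with Mycn. Myc was thus the second most abundant of the 10 in Ufl1-KO. Its overlap with the middle genes in NC came from NC replicate 1, at 30.02 FPKM. In NC replicates 2 and 3 Myc had 11.3 and 14.1 FPKM, below Mxd1, Mxd4, Mlx and Mga in the same libraries.

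Of the summed FPKM of the 10 genes, Mxi1 made up 40.7%, 39.8% and 40.3% in the Ufl1-KO libraries, against 51.1%, 56.4% and 58.3% in the NC libraries. It was the largest component in every library. The share of Myc was 16.4%, 17.7% and 16.5% in Ufl1-KO, against 8.72%, 3.26% and 4.33% in NC. Max kept overlapping shares of 11.5% to 12.4% in Ufl1-KO and 9.95% to 13.1% in NC. The summed FPKM of Mxd1, Mxi1, Mxd3 and Mxd4 over that of Myc and Mycn was 3.27, 2.98 and 3.18 in Ufl1-KO, against 6.56, 17.4 and 13.8 in NC. Every Ufl1-KO library lay below all NC libraries. NC replicate 1 had the lowest ratio of its group and lay nearer to Ufl1-KO than to the other NC libraries. These ratios combine genes chosen as members and are given without a test. They concern mRNA, and say nothing of the amounts of protein.

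**Figure D3:**
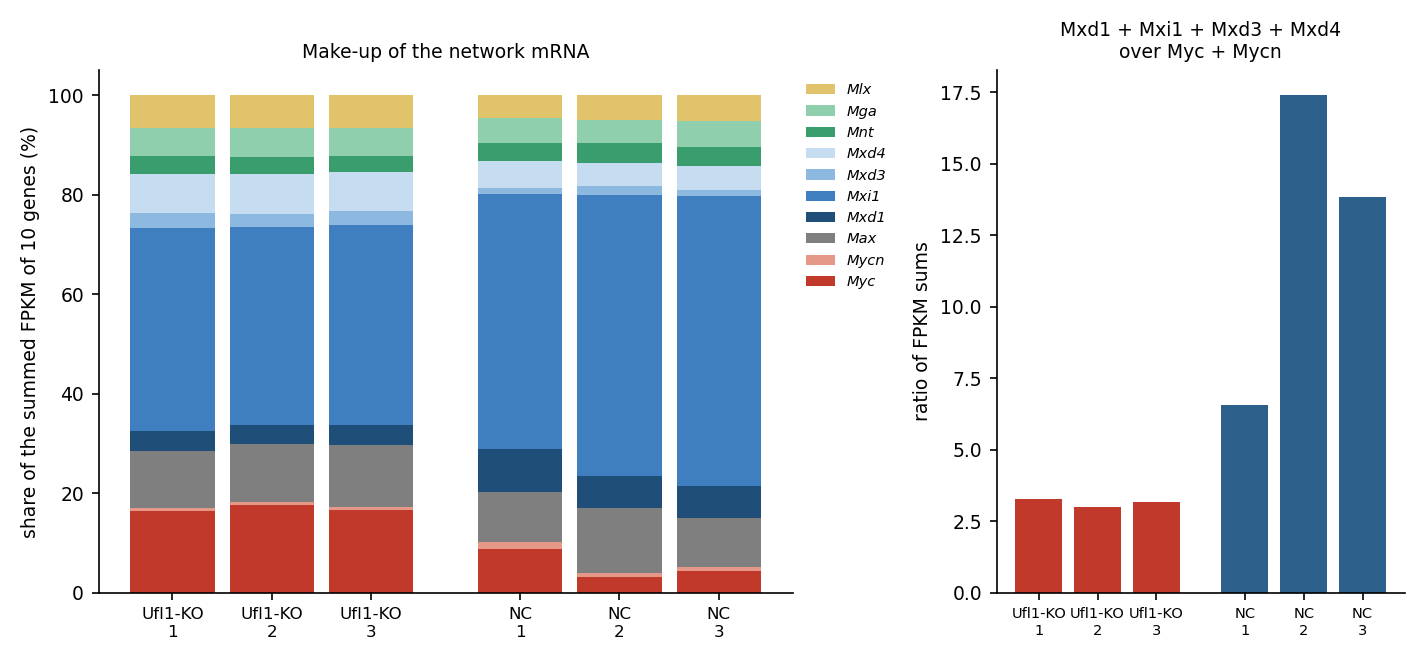
Left, share of each gene in the summed FPKM of the 10 genes (%), by library. Right, ratio of the FPKM sums of Mxd1, Mxi1, Mxd3 and Mxd4 to those of Myc and Mycn, which lay between 2.98 and 3.27 in Ufl1-KO and between 6.56 and 17.4 in NC.

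The deposited tables also carry a length for each gene and library, since the count divided by FPKM and by the library total gives the transcript length that the FPKM assumed. For Mnt (4590 bases), Mxd3 (1327 bases) and Mycn (2673 to 2675 bases) it lay within 1 base of their longest coding transcript in GENCODE M21 in every library. For the other 7 genes it varied more between libraries. The sources used here do not give which transcripts it rests on. For Max, with coding transcripts of 752 to 1942 bases, the length was 1771, 1780 and 1684 bases in Ufl1-KO, against 1860, 1494 and 1927 bases in NC. NC replicate 2 had the shortest length, which is the library with the high FPKM of Max. The highest length of Max was 1.29 times the lowest, a ratio above that of all but 5.18% of 7412 genes with at least 200 counts and 2 FPKM in every library. For Mxd4 the length was 3750, 3712 and 3689 bases in Ufl1-KO, against 3583, 3240 and 3457 bases in NC, with no overlap. Mxi1 likewise had 2538, 2544 and 2542 bases in Ufl1-KO, against 2478, 2448 and 2457 bases in NC. The lengths of Mga did not overlap either but nearly met, at 12138 to 12258 bases in Ufl1-KO and 12262 to 12341 bases in NC. Those of Myc overlapped. The share of all genes whose lengths do not overlap between the groups was not counted, so nothing is read from these gaps. These lengths come from the authors' estimates, and no transcript of any member was counted separately here.

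**Figure D4:**
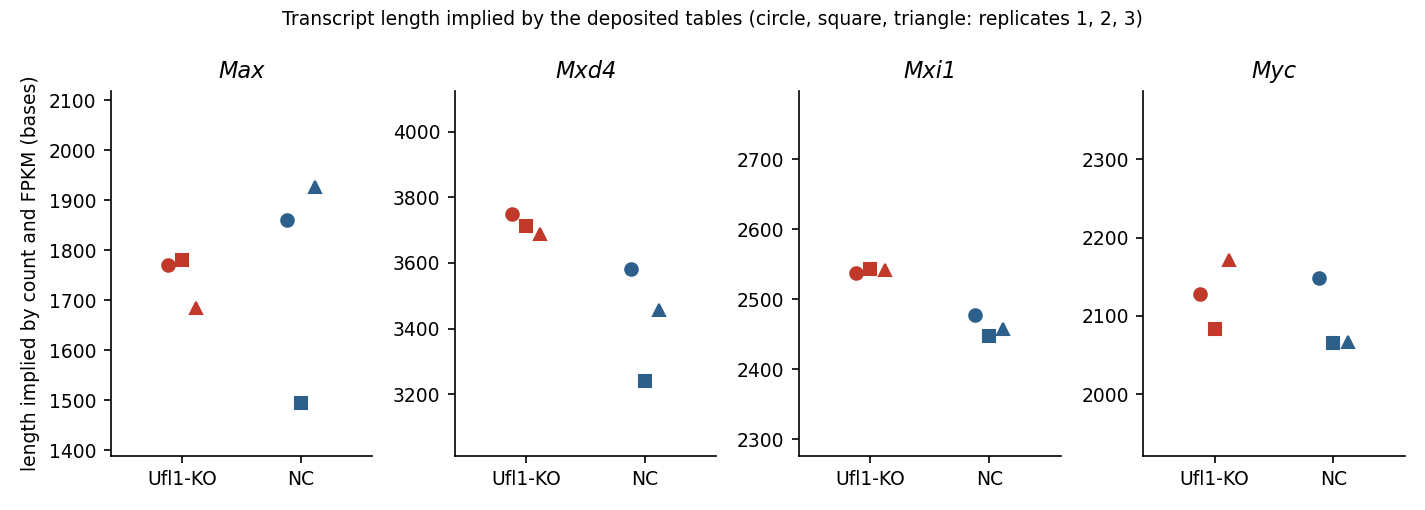
Length in bases implied by count, FPKM and library total for Max, Mxd4, Mxi1 and Myc, with each library as a point, Ufl1-KO left of NC, and a separate y axis, not from 0, for each gene. Max in NC replicate 2 stands at 1494 bases. The groups do not overlap for Mxd4 and Mxi1, and the share of all genes without overlap was not counted.

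Other E-box factors were lower or not called. Of 11 listed, 10 were tested, of which 6 fell and 4 were not called (median log2 fold change -0.27), where 33.4% of all genes tested fell, and Mlxipl was below the filter on low counts. Mycl, the third MYC gene, had 6.45 ± 0.583 CPM in Ufl1-KO and 10.2 ± 0.571 CPM in NC (SD, n = 3 each; log2 fold change -0.65, SE 0.12). TFAP4, which encodes the E-box factor AP4 and is known as a MYC target in human cells, had 12.6 ± 0.582 CPM in Ufl1-KO and 53.8 ± 18.7 CPM in NC. Mitf fell to 1.35 ± 0.314 CPM in Ufl1-KO, against 5.44 ± 0.145 CPM in NC, and Mlxip (MondoA) changed by -0.25 (log2, SE 0.07). With library size alone and in each FPKM fit 3 of these genes were lower and 1 higher, and 1 was also higher without NC replicate 1.

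Of 13 genes for proteins that work with MYC at chromatin, 8 rose and 2 fell (median log2 fold change 0.21), where 33.3% of all genes tested rose and 33.4% fell. Without Ufl1-KO replicate 1, Ufl1-KO replicate 2, NC replicate 2 or NC replicate 3, 6 of the 13 rose. Kat2a, the acetyltransferase GCN5, had 53.3 ± 1.56 CPM in Ufl1-KO and 26.6 ± 1.52 CPM in NC (SD, n = 3 each). TRRAP, the scaffold that MYC binds, rose by 0.75 (log2, SE 0.06) and Ruvbl1 by 0.85 (SE 0.09). Ccnt1, a cyclin gene of transcription elongation, fell by 0.77 (log2, SE 0.08). Of 14 genes of the SIN3-HDAC corepressor, which MXD proteins recruit, 5 rose and 6 fell, near the 33.3% and 33.4% of all genes tested. The deacetylase Hdac1 had 191 ± 5.08 CPM in Ufl1-KO and 100.05 ± 4.48 CPM in NC, while Sap18 had 228 ± 6.3 CPM in Ufl1-KO and 1127 ± 124 CPM in NC. Sin3a, the scaffold bound by MXD proteins, fell by 0.57 (log2, SE 0.07) and Sap30 by 1.15 (SE 0.15). The median of this list turned from -0.14 to 0.04 with library size alone.

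Of 15 genes for turnover of MYC protein, 6 rose and 3 fell (median 0.05), where 33.3% of all genes tested rose and 33.4% fell. Set and Cip2a encode inhibitors of the phosphatase PP2A. Set rose by 0.43 (log2, SE 0.06), the ubiquitin ligase gene Skp2 by 0.58 (SE 0.08) and Cip2a by 0.40 (SE 0.06). The 3 that fell were Usp28, Ppp2r5a and Btrc, with log2 fold changes of -0.38, -0.27 and -0.38. With library size alone 9 rose and 1 fell, where 5365 of all 12224 genes rose and 3119 fell. Of 10 partners of MGA in PRC1.6, 3 rose and 2 fell (median 0.04), no larger a share than the 33.3% and 33.4% of all genes tested. L3mbtl2 (0.89, SE 0.14) and Pcgf6 (0.68, SE 0.13) rose, while Rybp had 63.0 ± 1.07 CPM in Ufl1-KO and 132 ± 7.73 CPM in NC, and Rnf2 fell by 0.38 (log2, SE 0.07). Without NC replicate 1, 4 of these rose and 4 fell. Of 13 germline genes that PRC1.6 is known to repress, 9 were under the filter on low counts and 4 of those were listed at 0 in every library. Among the 4 tested, Stag3 and Tdrkh fell, with log2 fold changes of -1.49 and -0.95. Smc1b fell too by counts, with 6 to 9 counts a library in Ufl1-KO and 10 to 31 in NC. Its FPKM overlapped between the groups, at 0.307 ± 0.376 FPKM in Ufl1-KO and 0.233 ± 0.134 FPKM in NC (SD, n = 3 each). Ddx4, the fourth, had 19 to 26 counts in Ufl1-KO and 13 to 19 in NC and was not called.

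Known target genes were counted in both directions. Of 29 genes that MYC is known to activate, 18 rose, 3 fell and 8 were not called (median log2 fold change 0.36), where 33.3% of all genes tested rose. Bop1, a ribosome assembly factor, had 39.4 ± 1.16 CPM in Ufl1-KO and 11.7 ± 1.18 CPM in NC, and the nucleotide kinase gene Nme1 had 30.01 ± 1.79 CPM in Ufl1-KO and 9.51 ± 0.579 CPM in NC (SD, n = 3 each). Cad, the first enzyme of pyrimidine synthesis, rose by 1.11 (log2, SE 0.06) and the nucleolar gene Mybbp1a by 0.86 (SE 0.06). The 3 that fell were Npm1 (-0.78, SE 0.09), the mitochondrial serine enzyme gene Shmt2 (-0.69, SE 0.09) and the cap-binding factor gene Eif4e (-0.33, SE 0.06). With library size alone 25 rose and 3 fell, where 5365 of all 12224 genes rose and 3119 fell. Without NC replicate 1, the NC library with high Myc, 19 rose and 3 fell, where 4783 of 12376 genes rose and 4594 fell.

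Of 10 genes that MYC is known to repress, 7 fell, 2 rose and 1 was not called (median -0.79), where 33.4% of all genes tested fell. Cdkn1b, the cell cycle inhibitor p27, had 177 ± 3.24 CPM in Ufl1-KO and 430 ± 69.6 CPM in NC (SD, n = 3 each). Gadd45a, a growth arrest gene, had 22.7 ± 2.65 CPM in Ufl1-KO and 119 ± 20.5 CPM in NC. Ndrg1 (-1.19, SE 0.06), which HIF also induces, and Cdkn1a (-0.71, SE 0.06), which p53 also induces, fell too. The 2 that rose were the cell cycle inhibitor gene Cdkn2b (0.56, SE 0.12) and Gas1 (0.67, SE 0.15). Pdgfrb, another of the 7, is also a fibroblast marker, a list of which 7 of the 8 tested genes fell, as given above. Of 8 listed targets of MLX with its glucose-responsive partners, Pklr was at 0 counts in every library, and of the 7 tested 5 rose and 1 fell (median 0.67), where 33.3% of all genes tested rose. Fasn, fatty acid synthase, had 265 ± 16.0 CPM in Ufl1-KO and 56.0 ± 11.8 CPM in NC, and Elovl6 (1.27, SE 0.14) and Acaca (0.67, SE 0.06) rose as well. Klf10 fell by 1.14 (log2, SE 0.11). Txnip, the best known MondoA target, had 131 ± 8.73 CPM in Ufl1-KO and 125 ± 21.6 CPM in NC and was not called. Arrdc4, another of the 5 that rose, changed by 0.71 (log2, SE 0.21) by counts, while its FPKM overlapped between the groups. Many of these targets answer to other regulators too, whose part was not tested.

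**Figure D5:**
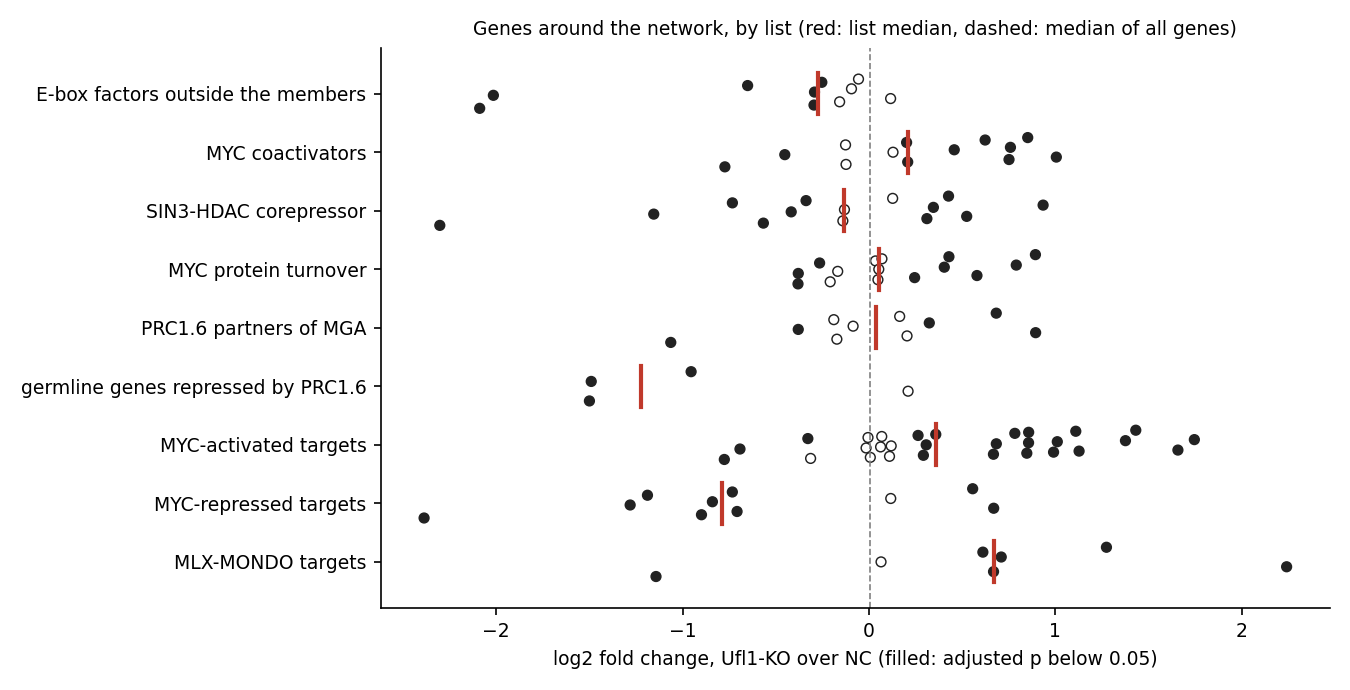
Log2 fold change (x axis, Ufl1-KO over NC) of each tested gene in 9 lists around the network, filled where the adjusted p was below 0.05, with the list median in red. The medians are 0.36 for MYC-activated and -0.79 for MYC-repressed targets, and the dashed line is the median of all genes.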

How the data were processed

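RNA-seq of 3 Ufl1-KO and 3 NC libraries was used. The authors deposited estimated counts per gene, not normalised, and FPKM values, which the file headers name as such. The submitters' processing notes list the builds hg38, GRCh38 and mm10 and the tools featureCounts 2.0.0, STAR 2.7.7a and fastp 0.20.1, with no role for any. The sources used here give neither annotation nor strand setting, and counts of genes with close copies, overlapping or antisense partners are uncertain. In a library 7.29% to 8.09% of 22274 rows were over 0.001 from a whole number, and counts were rounded.

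The 1225 rows without a gene name (0.594% to 0.661% of counts) were left out, and rows sharing a symbol, ignoring case, were summed. The test was the quasi-likelihood test of edgeR 4.0.16 (R 4.3.3), with genotype as the only term, TMM scaling, filterByExpr and Benjamini-Hochberg adjustment over 12224 genes at 0.05. The SE is the size of the log2 fold change over the square root of F. Replicates differed beyond sampling noise (chi-square per gene of 2.35 or more).

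Alternatives were other scalings and filters, DESeq2 1.42.0, limma 3.58.1 (voom, and log2 of FPKM plus 1 or 0.1, for genes with mean FPKM of at least 0.1 or unfiltered), unsummed rows, a replicate block and leaving out each library. Shares and promoter motifs are descriptions. Coordinates are from GENCODE M21 and promoters from RefSeq. Python 3.11.15, pandas 2.3.3, numpy 2.4.6 and matplotlib 3.10.9 were used for summaries.

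The 10 genes, the lists and the tests were chosen with earlier results of these data known, so no list is independent support for a pattern. All 10 genes are named. Some genes of the lists are counted but not reported by name here. From each list the rule named up to 4 genes with the smallest p, and genes called against the majority of their list. Txnip, Arrdc4, Pdgfrb, Pklr, Mlxipl and the markers were named after their values were seen.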

Additional observations from a re-analysis of the deposited data

How the results depend on the processing

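Of the 10 network genes, Myc, Mycn, Mxd1, Mxi1 and Mnt kept their direction and their call under all 18 alternatives. The number called lower was 6 in each count fit and 4 in the 3 FPKM fits, where Max and Mga were lost. The number called higher ran from 1 to 3 when single libraries were left out. Mlx turned to 0.0732 with library size alone, to 0.0784 on log2(FPKM + 1) with and without a filter and to 0.0825 on log2(FPKM + 0.1), and was called under none of them. Library size and FPKM both scale by the library total. The median of all genes stood at 0.18 with library size alone, beside 0.00 with TMM. It was 0.13 and 0.17 in the filtered FPKM fits and 0.04 in the unfiltered one. The cause of the turn of Mlx was not tested.

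Among the lists, the E-box factors had 1 gene higher and 3 lower with library size alone and in each of the 3 FPKM fits. The MYC coactivators had 1 lower in each FPKM fit. The MYC turnover genes had 1 lower with library size alone, on log2(FPKM + 1) and on log2(FPKM + 0.1), and 0 lower on unfiltered log2(FPKM + 1). The germline genes had 1 higher on unfiltered log2(FPKM + 1). When single libraries were left out, the E-box factors ran from 0 to 1 higher and from 4 to 7 lower, and the PRC1.6 partners from 2 to 4 lower. MYC-repressed targets had 7 lower and 2 higher throughout, and MYC-activated targets 17 to 25 higher and 3 lower. The 25 were found with library size alone, where 5365 of all 12224 genes were higher. In place of FPKM, CPM moved 17 of 20 group mean shares beyond 1 SD, with Mxi1 at 33.1% in Ufl1-KO and 44.1% in NC.

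With the replicate block, 3 network genes were higher and 6 lower, as without it, and 3892 genes were higher and 3910 lower overall. Deviations of same-numbered libraries correlated at 0.0291, -0.228 and 0.048. With 3 libraries in a group, these values cannot tell whether the numbers pair the libraries. With the block, 6 MYC coactivators were higher. Mycn and Mxd3 had the lowest counts of the 10 genes, at 63 to 243 in a library, while Myc had the highest SE, at 0.30.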
